A study of Mus musculus with 12 samples.

Results

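The genes of the AMPA and kainate receptor subunits were examined for H4K12ac, the acetylation of lysine 12 of histone H4, in hippocampal neurons of mice with and without *Tip60*. The 4 AMPA receptor genes (*Gria1*, *Gria2*, *Gria3* and *Gria4*) and the 5 kainate receptor genes (*Grik1*, *Grik2*, *Grik3*, *Grik4* and *Grik5*) were taken by name from the GENCODE annotation of GRCm38, in which they are 9 of 55413 genes on chromosomes 1 to 19, X and Y. TIP60 is a lysine acetyltransferase with H4K12 among its substrates. The *Tip60* cKO animals (genotype label Tip60cKO) were homozygous for a floxed *Tip60* allele and carried the tamoxifen-inducible *CaMKCreERT2* driver, which the controls, floxed on both alleles as well, lacked. Both genotypes received tamoxifen, and the labels give 3 months of age, male sex and the strain C57BL/6J. The driver deletes in postmitotic excitatory neurons of the forebrain and not in glia or neuronal progenitors. Nuclei of other neurons in the sort would therefore keep the gene, which was not measured. Fixed neuronal nuclei of the whole hippocampus were sorted by FACS and immunoprecipitated in 5 libraries per genotype, and 1 pooled input library per genotype served as background. The labels call the libraries replicates by number alone, so the p-values measure the spread between these 10 libraries. No transcript of *Tip60* is measured by these lists, and the genotype labels were therefore not checked by the deleted gene.

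AMPA and kainate receptors are tetrameric cation channels opened by glutamate. AMPA receptors carry most of the fast excitatory current at hippocampal synapses, and the number and makeup of AMPA receptors in the membrane change during synaptic plasticity. *Gria2* encodes the subunit whose RNA is edited so that the channel passes little calcium. Kainate receptors act on both sides of the synapse and are prominent at mossy fibre synapses in CA3. *Grik1*, *Grik2* and *Grik3* encode subunits that form channels by themselves, and *Grik4* and *Grik5* encode subunits of high affinity that need one of those 3 partners. Acetylation of H4 tails is generally found at active promoters and along active genes, and enhancers in introns often carry it too.

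All 9 genes are long, at the 81.4th to 99.4th percentile of length among 21938 protein-coding genes. The AMPA receptor genes are *Gria1* (ENSMUSG00000020524.16, chr11:57011387-57330244, plus strand), *Gria2* (ENSMUSG00000033981.14, chr3:80681450-80802835, minus strand), *Gria3* (ENSMUSG00000001986.16, chrX:41400854-41678601, plus strand) and *Gria4* (ENSMUSG00000025892.16, chr9:4417896-4796234, minus strand). The kainate receptor genes are *Grik1* (ENSMUSG00000022935.16, chr16:87895900-88290265, minus strand), *Grik2* (ENSMUSG00000056073.16, chr10:49094833-49788766, minus strand), *Grik3* (ENSMUSG00000001985.9, chr4:125490700-125714173, plus strand), *Grik4* (ENSMUSG00000032017.14, chr9:42518135-42944493, minus strand) and *Grik5* (ENSMUSG00000003378.9, chr7:25009849-25072346, minus strand). *Grik5* is the shortest with 62.5 kb and *Grik2* the longest with 694 kb. The start of *Zfp574* lies 221 bp from that of *Grik5* and the start of *Gm48123* 61 bp from that of *Grik2*, so peaks there cannot be assigned to one gene of the pair. The start of *Gm47931* lies 2308 bp from that of *Grik4*.

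Sequences are shown for starts and internal regions that are named in the comparisons below. The first set holds bases directly upstream of the annotated start for *Grik4*, *Gria2* and *Gria4*. The start of *Grik4* had the strongest peak of the family, and *Gria4* was nearly without peaks. The start rank of *Gria2* had the smallest unadjusted p of the family in the limma fit described below (adjusted p = 0.209). In all 5 *Tip60* cKO libraries that rank rested on a peak about 2 kb downstream of the start. The second set holds 200 bases around the summit of 3 regions inside the genes, 2 of which had the smallest p-value in their gene with a peak in all 10 lists, and 1 of which had a peak in the control lists only. All are RefSeq sequences of GRCm38.p6 in the direction of transcription, and capitals mark CpG dinucleotides, the sites of DNA methylation. The 128 bases of *Grik4* hold 23 CpGs, the 250 bases of *Gria2* and *Gria4* hold 19 and 16, and the stretches inside the genes hold 2 to 5.
Grik4, chr9:42944494-42944621, minus strand: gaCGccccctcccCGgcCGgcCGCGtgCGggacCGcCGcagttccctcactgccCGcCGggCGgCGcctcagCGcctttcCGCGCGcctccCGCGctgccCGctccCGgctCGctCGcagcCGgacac
Gria2, chr3:80802836-80803085, minus strand: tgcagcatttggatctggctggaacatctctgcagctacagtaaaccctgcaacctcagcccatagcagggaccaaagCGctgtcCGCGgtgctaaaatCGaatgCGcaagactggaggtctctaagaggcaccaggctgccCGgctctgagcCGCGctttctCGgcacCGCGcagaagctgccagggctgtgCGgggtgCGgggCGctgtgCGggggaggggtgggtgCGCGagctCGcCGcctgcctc
Gria4, chr9:4796235-4796484, minus strand: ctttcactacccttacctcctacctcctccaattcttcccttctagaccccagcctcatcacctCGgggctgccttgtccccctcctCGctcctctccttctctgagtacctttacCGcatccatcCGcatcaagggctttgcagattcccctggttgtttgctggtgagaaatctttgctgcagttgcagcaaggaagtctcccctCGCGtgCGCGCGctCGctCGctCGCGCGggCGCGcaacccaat
Gria2 intron 5, chr3:80723969-80724168, minus strand: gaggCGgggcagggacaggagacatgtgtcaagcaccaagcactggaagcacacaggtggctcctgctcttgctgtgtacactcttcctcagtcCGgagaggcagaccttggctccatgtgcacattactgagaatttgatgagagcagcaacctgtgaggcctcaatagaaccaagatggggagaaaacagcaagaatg
Grik4 intron 9, chr9:42627719-42627918, minus strand: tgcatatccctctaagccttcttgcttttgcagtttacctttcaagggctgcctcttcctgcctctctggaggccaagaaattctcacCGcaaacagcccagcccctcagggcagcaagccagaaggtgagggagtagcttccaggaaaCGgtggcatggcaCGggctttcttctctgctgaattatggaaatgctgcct
Gria1 at the non-coding transcript Gria1-205, chr11:57176787-57176986, plus strand: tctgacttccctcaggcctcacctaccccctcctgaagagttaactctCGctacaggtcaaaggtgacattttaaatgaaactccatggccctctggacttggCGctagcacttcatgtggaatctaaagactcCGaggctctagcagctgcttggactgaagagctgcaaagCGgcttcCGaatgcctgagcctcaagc

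Each list gives the peaks of 1 library, with the fold enrichment of each summit over the local background. For each gene the TSS rank score was a percent rank among all genes' start windows of that library. It ranked the strongest peak that overlapped the 2 kb on either side of the transcription start site (TSS), also one with its summit outside. A window without a peak scored 0. TSS coverage was the percentage of this 4 kb window under peaks. Gene body coverage and the gene body rank score were the same measures for the rest of the gene beyond 2 kb downstream of its start, where the rank score took any peak that overlapped this stretch, also one with its summit outside it. Genotypes were compared with limma across all genes that had a peak in at least 2 lists, with Benjamini-Hochberg adjustment over all of them, and single genes by exact permutation of the 5 and 5 libraries (two-sided), whose smallest possible p is 0.00794.

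The *Tip60* cKO libraries held 22864189 to 37077725 tags and 64245 to 135494 peaks, and the control libraries 27418740 to 37923809 tags and 93575 to 136409 peaks. Peaks covered 43.84 ± 14.002 Mb in *Tip60* cKO and 56.4 ± 10.7 Mb in control libraries (SD, n = 5), and *Tip60* cKO library 5 had the fewest peaks. A window without a peak was below the calling threshold at that depth, which does not show absence of acetylation. The neuronal label held for its markers, since all 4 neuronal genes and 4 of 5 excitatory neuron genes had a TSS peak in all 10 lists. *Gad1*, *Sst* and *Vip* of inhibitory neurons had none in any list, whereas *Gad2* had one in 1 list, *Slc32a1* in 2 and *Pvalb* in 3. The mean TSS coverage of the 6 inhibitory genes was at most 1.42% in any library. Of the glial genes, *Mog*, *Mag* and *Mobp* had none, whereas *Cnp* had a TSS peak in 10 lists and *Gfap* and *Aldoc* in 9. The mean coverage of the 5 astrocyte genes ranged from 3.20 to 4.77% in *Tip60* cKO and from 4.05 to 9.36% in control libraries. That of the 4 oligodendrocyte precursor genes ranged from 1.43 to 7.67% and from 0 to 1.95%, all of it from *Cspg4*, as *Pdgfra*, *Olig1* and *Olig2* had no TSS peak in any list. That of the 5 microglia genes ranged from 0 to 0.320% and from 0 to 1.79%, with 4 of them at 0. That of the 5 endothelium genes ranged from 0 to 4.13% and from 0 to 2.71%. *Gfap* was at 4.60 ± 3.36% in *Tip60* cKO and 19.6 ± 4.87% in control libraries (adjusted p = 0.0289 by limma). *Aldoc* was at 11.5 ± 4.57% and 9.04 ± 6.17% (adjusted p = 0.485 by limma). The part of these genes in the results was not tested.

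In control neurons the family fell into very different acetylation patterns. *Grik4* had the strongest start of all 9 genes, *Grik5*, *Gria1* and *Grik4* carried peaks along their whole length, *Gria2*, *Grik2* and *Grik3* had sparse peaks in their bodies beside a start peak, and *Gria3*, *Gria4* and *Grik1* had few peaks or none. By TSS rank score the order of control means was *Grik4* (99.8 ± 0.169), *Grik5* (96.3 ± 6.07), *Gria1* (88.5 ± 5.07), *Gria2* (85.5 ± 2.69), *Grik3* (82.3 ± 3.46), *Grik2* (81.3 ± 5.81), *Gria3* (58.7 ± 33.1), *Gria4* (14.5 ± 32.4) and *Grik1* (0 in 5 libraries). The control libraries of *Grik4* lay above all those of *Grik5*, and every other pair of neighbours in this order down to *Grik1* overlapped. The median of control means over 21938 protein-coding genes was 71.8, and *Grik4* stood at the 99.96th percentile.

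**Figure D1:**
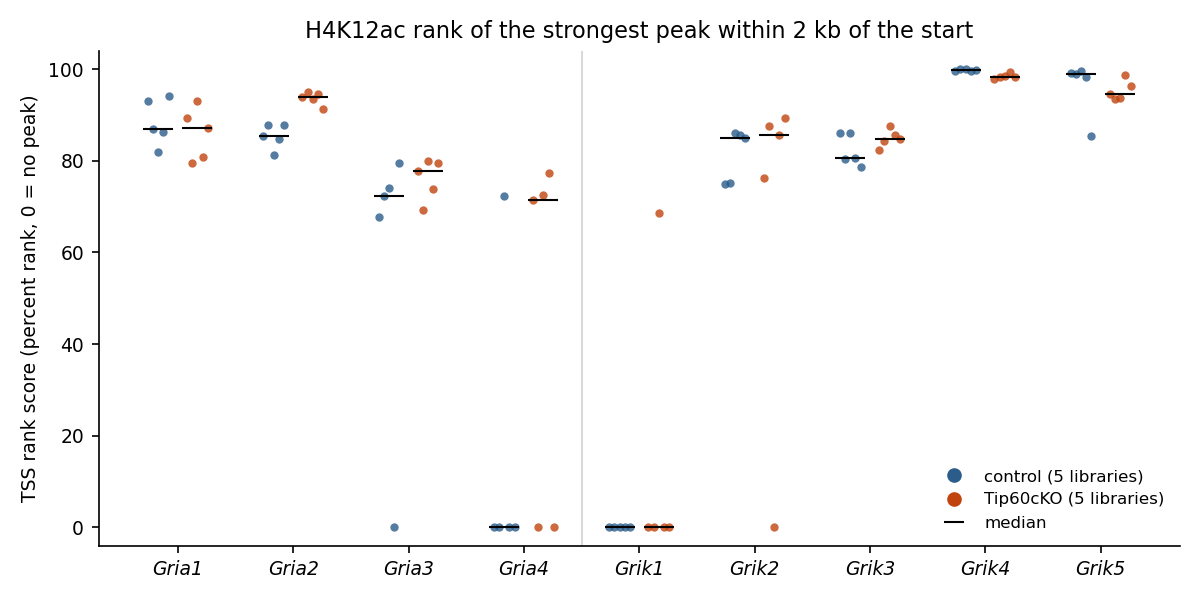
TSS rank score of the 9 genes, with 1 point per library, 5 control and 5 *Tip60* cKO, and a bar at the median. The score is the percent rank of the strongest H4K12ac peak overlapping the 2 kb on either side of the start, 0 without a peak. *Grik4* lies near the top in all libraries, every *Tip60* cKO point of *Gria2* lies above its control points, and *Gria4* and *Grik1* lie mostly at 0.

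The width of the acetylated start gave another order. *Grik5* led with a TSS coverage of 75.4 ± 14.8% in controls, followed by *Gria2* (61.9 ± 7.83%), *Grik4* (60.5 ± 6.49%), *Gria1* (59.6 ± 14.5%) and *Grik3* (57.1 ± 7.16%), all of which overlapped with their neighbours. These 5 genes stood between the 97.2th and the 99.5th percentile of protein-coding genes, whose median was 10.7%. Lower means were found for *Grik2* (27.99 ± 12.4%), *Gria3* (12.2 ± 8.28%), *Gria4* (2.49 ± 5.57%) and *Grik1* (0%). The control libraries of *Grik3* did not overlap with those of *Grik2*, but 1 control library of *Gria1* (36.4%) lay within the range of *Grik2*. Neighbours among the last 4 genes overlapped.

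The CpG content of these broad starts ranged widely. *Grik3* and *Grik4* had 259 and 173 CpGs in the 4 kb window, at the 98.97th and 90.8th percentile of protein-coding genes. *Gria1* had only 57, at the 34.3th percentile, and yet its control coverage was at or above that of 99.2% of the 5130 genes within 20 CpGs of it, whose median coverage was 0. *Grik5* with 92 CpGs was at or above 99.5% of 5441 such genes, and *Gria2* with 107 CpGs at or above 98.5% of 5359. At the other end, 88.4% of the 5469 genes with a CpG content like that of *Grik1* (95 CpGs) had a TSS peak in at least 2 lists, but *Grik1* had one in 1 list. *Gria4* with 82 CpGs was at or above 25.3% of 5265 genes.

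RefSeq promoters of 300 bases matched 6 of the 9 genes, and *Gria1*, *Gria3* and *Grik1* were not matched. On both strands the GC box GGGCGG occurred 7 times in *Grik3*, 2 times in *Grik4* and 2 times in *Grik5*, against a share of 35.7% of 32851 promoters with at least one. The core TGCGCA was found in *Gria2* and *Grik3* (7.76% of promoters), the CCAAT box 2 times in *Gria4* (37.4%) and TGACG in *Grik2* (20.8%). No match of TATAAA (13.6%), TGACGTCA (1.79%) or TGANTCA (7.81%) lay in the 6 windows, and CANNTG (72.3%) was in *Gria2*, *Gria4*, *Grik2* and *Grik3*. TGACG lies within TGACGTCA, and the matches are letters in a window and not shown to be bound.

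Along the gene bodies the family split into 3 levels. *Grik5* (20.5 ± 6.87% of the body under peaks), *Gria1* (17.0 ± 5.50%) and *Grik4* (17.0 ± 4.17%) were in the highest level in controls, *Grik3* (1.89 ± 0.722%), *Gria2* (1.89 ± 0.664%) and *Grik2* (1.67 ± 0.540%) in the middle, and *Gria3* (0.0341 ± 0.0467%), *Grik1* (0.0245 ± 0.0343%) and *Gria4* (0%) in the lowest. Control libraries overlapped between neighbours within the levels and did not overlap between the levels. The median over protein-coding genes was 0.295%. *Gria1* had 76 to 165 separate peaks in its body in control libraries and *Grik4* 107 to 195, whereas *Gria4* had none in any of the 10 lists across 376 kb.

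**Figure D2:**
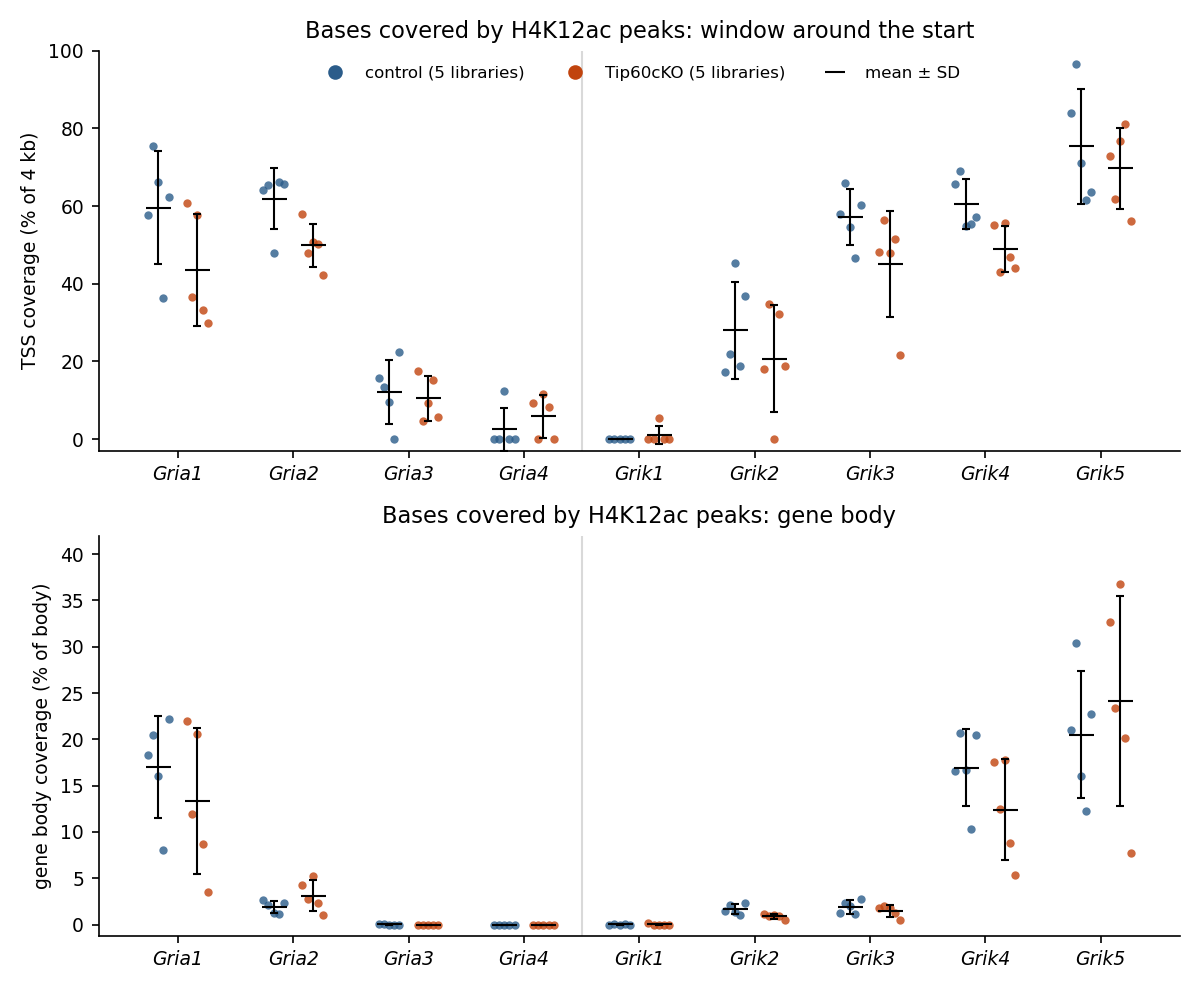
Percentage of bases under H4K12ac peaks in the 4 kb window around the start (top) and in the gene body (bottom) for the 9 genes, with 1 point per library and mean ± SD over 5 libraries of each genotype. *Grik5*, *Gria1* and *Grik4* stand apart in the gene body, and the *Tip60* cKO means of the start window are lower than the control means in all genes but *Gria4* and *Grik1*.

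The acetylated bodies differed in shape. In *Gria1* the control coverage of 5 successive parts of the body of equal length was 4.87, 8.26, 14.7, 20.4 and 36.8%, so that the share rose towards the end of the gene, and the *Tip60* cKO means of 4.10, 5.86, 10.5, 17.0 and 29.3% also rose from part to part. *Grik2* ran the other way, from 4.72% in the first to 0.167% in the last part. *Grik4* (21.03, 15.2, 16.0, 22.7 and 9.85%) and *Grik5* (15.1, 16.2, 24.4, 21.1 and 25.7%) were acetylated throughout. The strongest region of *Gria1* outside its start window, by mean control rank, was a stretch of 7508 bp at chr11:57315385-57322892, 308 kb from the start, which overlaps coding exons near the end of the gene. It ranked at 96.8 ± 3.24 in *Tip60* cKO and 95.8 ± 2.31 in control libraries (SD, n = 5, adjusted p = 0.956 by limma).

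**Figure D3:**
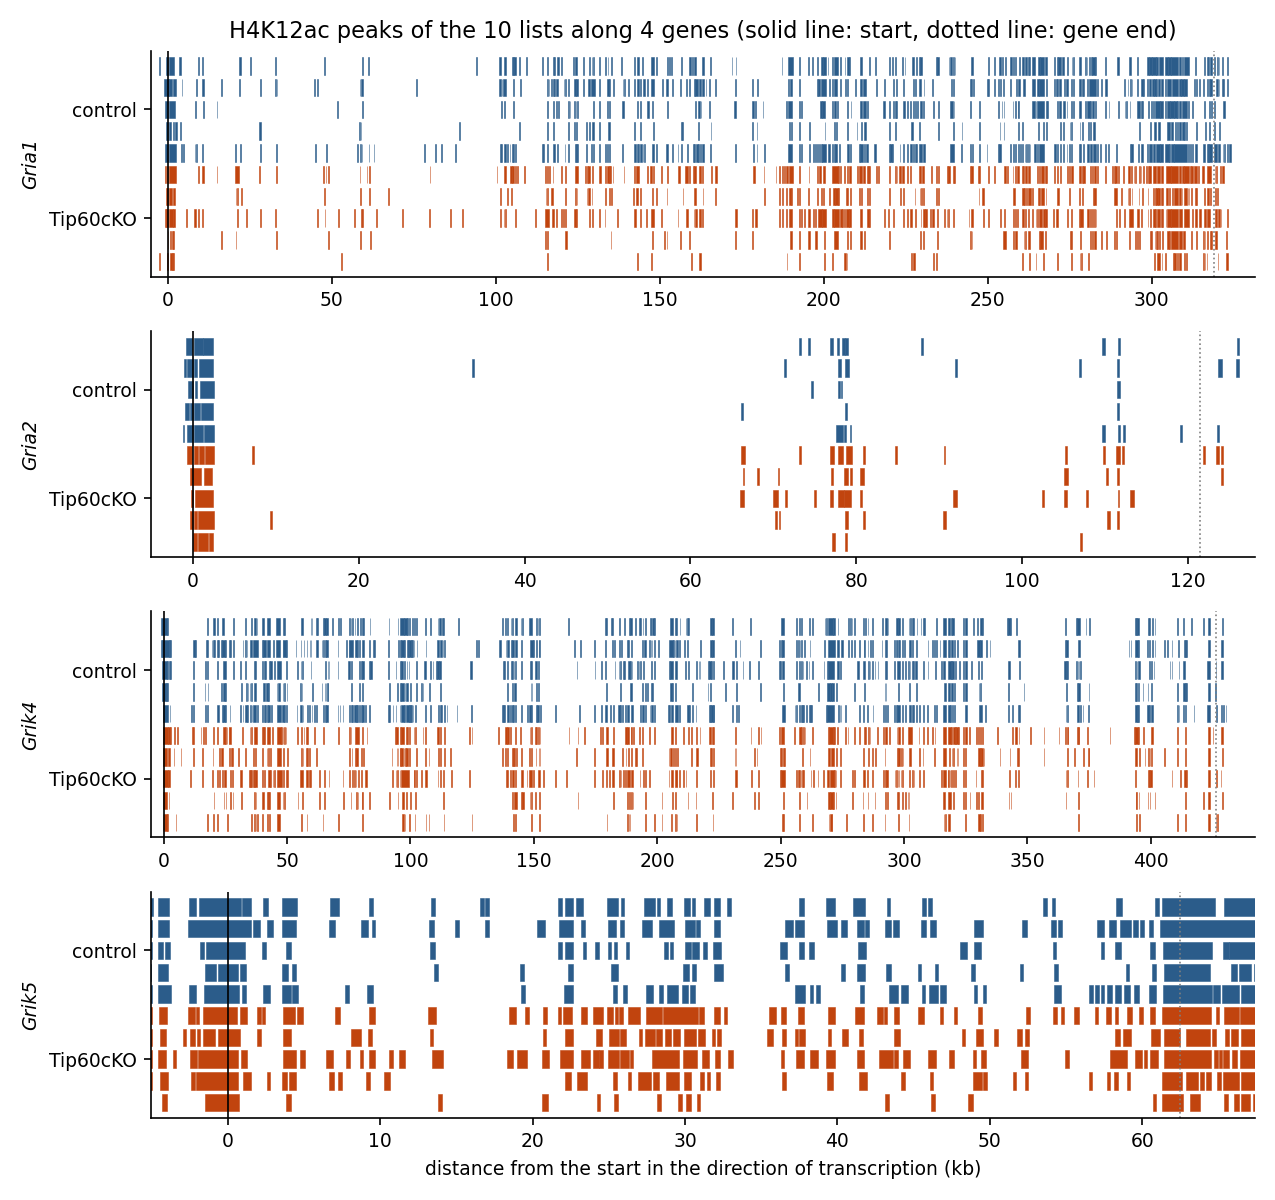
Positions of all H4K12ac peaks along *Gria1*, *Gria2*, *Grik4* and *Grik5*, 1 row per library (5 control above 5 *Tip60* cKO), as distance from the start in kb. Peaks become denser towards the end of *Gria1*, run through *Grik4* and *Grik5*, and in *Gria2* gather at the start and in the far part of the gene.

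The main comparison asked whether the genes had less H4K12ac in *Tip60* cKO neurons. None of the members passed the adjusted test in any of the 4 measures by limma. For the TSS rank score 0 of 8 testable members were called, against 0.397% of all 21672 genes tested, and 1 had an unadjusted p below 0.05, against 12.6% of all genes. For TSS coverage 0 of 8 were called (all genes 1.5%) and 2 had an unadjusted p below 0.05 (all genes 22.4%). For gene body coverage 0 of 8 were called (all genes 0.0702%) and 1 had an unadjusted p below 0.05 (15.7%), and for the gene body rank score 0 of 8 (0.0624%) and 2 (11.3%). With the exact permutation test in place of limma, adjusted over all genes, the count of members was 0 in all 4 measures. *Grik1* at the start and *Gria4* in the body had peaks in too few lists to be tested.

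The direction was uneven between the measures. TSS coverage was lower in *Tip60* cKO in 7 of the 8 members, with a median difference of −9.38 percentage points, and in 81.1% of all genes, with a median of −4.01. The TSS rank score, which compares genes within a library, was lower in 4 and higher in 4 members, with a median difference of 0.81 against −0.69 over all genes. Gene body coverage was lower in 6 members and higher in 2 (median −0.23 against −0.53 points), and the gene body rank score lower in 4 and higher in 4 (median −0.05 against −0.59). The mean number of bases under peaks in the whole genome was also lower in *Tip60* cKO (43.8 against 56.4 Mb). When TSS coverage was divided by the genome coverage of each list, the sign of the difference turned for *Gria2*, *Gria3*, *Grik2*, *Grik3*, *Grik4* and *Grik5*. It stayed for *Gria1* (lower) and *Gria4* (higher). Peaks of *Tip60* cKO library 5 covered only 0.829% of the genome, against 1.53 to 2.18% in the other *Tip60* cKO libraries. Without that library alone the signs of *Gria2*, *Grik2* and *Grik4* turned back to lower, and those of *Gria3*, *Grik3* and *Grik5* did not. Control library 4, with the smallest covered share of the controls (1.45%), was kept there. The exclusion was thus one-sided, and leaving out both libraries was not tested.

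*Grik4*, a subunit of high affinity, had a lower start peak in *Tip60* cKO. Its strongest start peak had a fold enrichment of 8.22, 7.72, 8.55, 9.40 and 7.50 in *Tip60* cKO libraries 1 to 5 and of 11.4, 13.2, 14.02, 10.4 and 10.5 in control libraries 1 to 5. Every *Tip60* cKO library lay below every control library, with means of 8.28 ± 0.751 and 11.9 ± 1.61 (SD, n = 5, exact permutation p = 0.00794). The height of the peak was 39, 34, 38, 41 and 24 fragments in *Tip60* cKO and 53, 64, 61, 40 and 52 in control libraries (exact permutation p = 0.0159), so that 1 *Tip60* cKO library lay above the lowest control.

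On the rank scale this difference was small, since the start remained among the highest in every library. The scores were 97.8, 98.2, 98.6, 99.4 and 98.2 in *Tip60* cKO and 99.6, 99.98, 99.98, 99.6 and 99.8 in control libraries, without overlap (exact permutation p = 0.00794, adjusted p = 0.604 by limma). Ranks in which all *Tip60* cKO libraries were lower than all controls occurred in 1.62% of all genes. As log2 of the fold enrichment over the median peak of its list, an alternative scale, *Grik4* was lower by 0.55 (log2 difference −0.55, SE 0.149, adjusted p = 0.0402), and it was the only member called, against 2.12% of all genes. The median of all genes on that scale was −0.21, so that *Grik4* was at −0.34 relative to it. Without 1 library at a time the adjusted p was between 0.0286 and 0.123, and the call held in 4 of 10 such fits.

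The merged region at this start, chr9:42941625-42945441, is scored by the same peak and is no second observation. On the log2 scale its difference was the same −0.55, and the fit over regions gave other errors (SE 0.0944, adjusted p = 2.67e-05 by limma over 144781 regions, of which 0.693% were called). Relative to the median of all regions it was −0.41. The adjusted p stayed between 4.87e-06 and 0.00347 with each library left out in turn, a choice made after the data were seen. On the rank scale the region was at 99.4 ± 0.225 in *Tip60* cKO and 99.9 ± 0.0542 in control libraries, and its adjusted p was 0.985. TSS coverage of *Grik4* was 49.0 ± 5.99% in *Tip60* cKO and 60.5 ± 6.49% in controls (SD, n = 5, exact permutation p = 0.0397, adjusted p = 0.209 by limma).

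Inside *Grik4* a second strong peak had a higher mean fold enrichment in *Tip60* cKO. It lies in intron 1 at chr9:42896622-42898856, 46.8 kb downstream of the start, and had a fold enrichment of 11.3, 10.1, 10.3, 8.73 and 9.89 in *Tip60* cKO and of 7.93, 9.45, 9.99, 8.43 and 6.07 in control libraries. The means were 10.1 ± 0.924 and 8.38 ± 1.52, and the ranges overlapped. By height the means were 43.0 ± 8.37 and 42.6 ± 5.94 fragments. The fold enrichment of the start peak was 1.24 to 1.73 times that of the intronic peak in the 5 control libraries and 0.727 to 1.08 times in the 5 *Tip60* cKO libraries. By height the ratio was 1.14 to 1.32 in control and 0.722 to 1.08 in *Tip60* cKO libraries. These ratios were chosen after the values were seen and are given without a test. The intronic region ranked at 99.9 ± 0.166 in *Tip60* cKO and 98.2 ± 2.05 in controls (SD, n = 5, exact permutation p = 0.00794, adjusted p = 0.808 by limma).

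**Figure D4:**
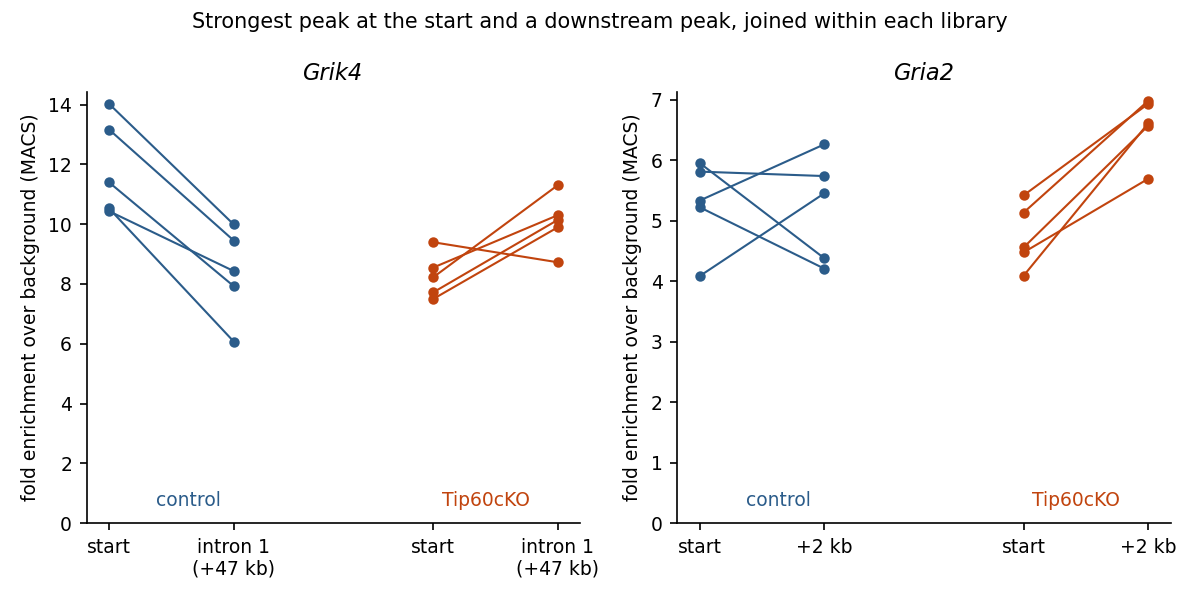
Fold enrichment of the start peak and of a downstream peak, joined by a line within each library, for *Grik4* (left, intron 1) and *Gria2* (right, about 2 kb after the start). In *Grik4* the line falls in all 5 control libraries and rises in 4 of 5 *Tip60* cKO libraries. In *Gria2* it rises in all 5 *Tip60* cKO libraries and in control libraries 2 and 4, and falls in control libraries 1, 3 and 5.

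Another intronic region of *Grik4* had the smallest p-value of all 466 regions of the family. At chr9:42627332-42628665 in intron 9, 316 kb from the start, whose summit bases are printed above, ranks were 99.8, 99.4, 92.7, 98.1 and 96.1 in *Tip60* cKO and 70.9, 90.8, 89.5, 86.3 and 84.5 in control libraries. All *Tip60* cKO libraries were higher than all controls, as in 0.783% of all regions. The means were 97.2 ± 2.92 and 84.4 ± 7.96 (SD, n = 5), and the difference of 12.8 (SE 3.62) had an adjusted p of 0.0809 by limma and an exact permutation p of 0.00794. By height of the peak instead of fold enrichment the difference in rank was 2.77.

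Over the whole *Grik4* body, coverage was 17.5, 12.5, 17.8, 8.85 and 5.35% in *Tip60* cKO and 16.6, 20.6, 16.7, 10.4 and 20.4% in control libraries. *Tip60* cKO libraries 4 and 5 were the lowest, and the others overlapped with the controls (exact permutation p = 0.183, adjusted p = 0.475 by limma). Of the 192 regions of the gene, 113 were lower and 79 higher in *Tip60* cKO.

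*Gria2*, the subunit that limits calcium entry, was higher in *Tip60* cKO by rank and lower by coverage, and passed the adjusted test in neither. By library the scores were 93.98, 95.1, 93.4, 94.6 and 91.3 in *Tip60* cKO and 85.5, 87.9, 81.3, 84.8 and 87.8 in control libraries. All *Tip60* cKO libraries were above all controls, a pattern seen in 1.93% of all genes. The difference was 8.21 (SE 2.76, exact permutation p = 0.00794, adjusted p = 0.209 by limma), with 9.26 within lane 7 and 6.65 within lane 8 of the sequencer. On the log2 scale used for *Grik4* above, the difference of *Gria2* was 0.16 (SE 0.156, adjusted p = 0.549 by limma).

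The peak behind this rank was not at the start itself. In all 5 *Tip60* cKO libraries the strongest peak of the window had its summit 1805 to 2301 bp after the start. In the controls the summit was there in 2 libraries and 163 to 342 bp before the start in the other 3. At 1 to 2.5 kb after the start the fold enrichment was 6.99, 6.61, 6.57, 6.94 and 5.70 in *Tip60* cKO and 5.74, 6.27, 4.21, 5.46 and 4.38 in control libraries (exact permutation p = 0.0238). The height of the same peaks was 27.8 ± 5.72 fragments in *Tip60* cKO and 31.8 ± 4.60 in controls (SD, n = 5, exact permutation p = 0.302), so that the direction differed between the enrichment and the height. At the strongest peak of the window, the background that MACS took was the level of the genome in all 5 *Tip60* cKO libraries. In the controls it was 1.025 to 1.42 times that level, each genotype against its own input. In 3 of the controls this was the peak before the start, so the positions differed between libraries.

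Within 1 kb of the start of *Gria2* the fold enrichment was 4.74 ± 0.534 in *Tip60* cKO and 5.28 ± 0.738 in controls (SD, n = 5, exact permutation p = 0.214). Ranking by height gave a difference of 2.13 for the whole window, and a window of 1 kb gave 2.24. TSS coverage was 57.9, 48.0, 50.7, 50.4 and 42.3% in *Tip60* cKO and 64.0, 65.6, 47.9, 66.2 and 65.6% in control libraries. It was lower in *Tip60* cKO by 12.0 points (SE 5.39, exact permutation p = 0.0397, adjusted p = 0.205 by limma), and control library 3 overlapped with the *Tip60* cKO libraries. The share of covered bases was thus lower and the rank of the strongest peak higher in the same window.

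The strongest body peak of *Gria2* ranked at 95.9 ± 1.26 in *Tip60* cKO and 86.2 ± 7.01 in control libraries (SD, n = 5), without overlap, as in 1.41% of all genes. The difference was 9.65 (SE 2.66, exact permutation p = 0.00794, adjusted p = 0.132 by limma). It rested on the same peak about 2 kb from the start in all 5 *Tip60* cKO and 4 of 5 control libraries, and is no second observation. Of the 16 regions of the gene, 13 ranked higher on average in *Tip60* cKO and 3 lower, whereas 56.9% of all regions ranked lower. The region in intron 5, chr3:80723372-80725285, 78.5 kb from the start and printed above, ranked at 85.7, 93.1, 92.0, 79.6 and 78.9 in *Tip60* cKO and 44.3, 58.5, 49.5, 67.8 and 53.2 in control libraries. The *Tip60* cKO libraries were all higher, with means of 85.8 ± 6.68 and 54.7 ± 9.02 (adjusted p = 0.161 by limma, exact permutation p = 0.00794), and by height the difference was 2.83 in place of 31.2.

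*Gria1*, the main partner of *Gria2* in hippocampal AMPA receptors, overlapped between the genotypes in all 4 measures. Its TSS coverage was 60.8, 36.6, 57.6, 33.3 and 29.9% in *Tip60* cKO and 57.6, 75.5, 66.2, 36.4 and 62.3% in control libraries. Of the controls 4 and 2 of the *Tip60* cKO libraries were above 57%, and the groups overlapped (difference −16.0, SE 7.83, exact permutation p = 0.0873, adjusted p = 0.240 by limma). The TSS rank score was 86.0 ± 5.64 and 88.5 ± 5.07 (adjusted p = 0.788). Body coverage was 13.3 ± 7.89% in *Tip60* cKO, where it ranged from 3.50% in library 5 to 22.0% in library 1, and 17.0 ± 5.50% in controls (adjusted p = 0.689 by limma). Without *Tip60* cKO library 5 the difference in body coverage was −1.19 in place of −3.65 points.

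The other AMPA receptor genes had few peaks in either genotype. *Gria3* had a TSS peak in all 5 *Tip60* cKO and in 4 control libraries, with a coverage of 4.67 to 17.6% and 0 to 22.4% (adjusted p = 0.823 by limma), and its strongest summit lay 843 to 1283 bp after the start. *Gria4* had a TSS peak in 3 *Tip60* cKO libraries, with rank scores of 71.4, 72.6 and 77.3, and in 1 control library, with 72.4, and 0 in the other 6 lists (adjusted p = 0.557). Neither gene had more than 1 peak in its body in any list.

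*Grik5*, the other subunit of high affinity, had the broadest acetylation. TSS coverage was 72.8, 61.7, 76.9, 81.0 and 56.3% in *Tip60* cKO and 84.0, 96.7, 71.1, 61.6 and 63.7% in control libraries (adjusted p = 0.682 by limma), and the groups overlapped throughout. The start peak had a fold enrichment of 7.10 ± 0.926 in *Tip60* cKO and 9.28 ± 2.23 in controls (SD, n = 5, exact permutation p = 0.0873). Body coverage was 32.7, 23.4, 36.8, 20.2 and 7.77% in *Tip60* cKO and 21.01, 30.4, 16.1, 12.3 and 22.7% in control libraries, with the highest and the lowest value both in *Tip60* cKO (adjusted p = 0.785). The gene body rank score was 98.2 ± 1.07 and 94.2 ± 3.51 (exact permutation p = 0.0635, adjusted p = 0.355 by limma). It rested on a peak with its summit beyond the end of the gene in *Tip60* cKO library 3 and control libraries 2 and 5. The strongest region, chr7:25002971-25011902, extends beyond the end of the gene, and its rank was 99.3 ± 0.442 and 98.5 ± 1.16.

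*Grik2*, a subunit found in most kainate receptors of the hippocampus, had lower mean body coverage in *Tip60* cKO, without passing the adjusted test. Its values were 1.17, 0.96, 1.02, 0.88 and 0.49% in *Tip60* cKO and 1.45, 2.13, 1.41, 1.04 and 2.33% in control libraries. Only control library 4 lay among the *Tip60* cKO values, and the means of 0.904 ± 0.254% and 1.67 ± 0.540% (SD, n = 5) differed with an exact permutation p of 0.0159 and an adjusted p of 0.306 by limma. The number of body peaks was 11 to 26 against 21 to 51. At the annotated 5′ start, TSS coverage was 20.7 ± 13.8% and 27.99 ± 12.4% (adjusted p = 0.516 by limma), and *Tip60* cKO library 3 had no peak there.

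A second start of *Grik2* was separated between the genotypes by coverage. There 3 coding transcripts begin 5.507 kb further downstream, at position 49783259 of chromosome 10. The coverage of the 4 kb around it was 40.1, 35.0, 34.02, 41.99 and 30.6% in *Tip60* cKO and 56.2, 51.9, 56.1, 49.9 and 56.4% in control libraries. All *Tip60* cKO libraries were lower, with means of 36.4 ± 4.65% and 54.1 ± 3.00% (SD, n = 5, exact permutation p = 0.00794), and such a separation of TSS coverage was seen in 5.23% of all genes. This start was singled out after its values were seen. Divided by the covered share of the genome, the values were 24.5 ± 7.95 and 26.9 ± 4.96 (exact permutation p = 0.579). *Tip60* cKO library 5, with the smallest covered share (0.829%), had the highest of these values in its group. Without it the *Tip60* cKO mean lay further below the control mean, with control library 4, the one with the smallest covered share of the controls (1.45%), kept. The region over this start, chr10:49779559-49784341, had a rank of 89.7 ± 2.94 and 94.0 ± 2.30 (exact permutation p = 0.0397, adjusted p = 0.503 by limma).

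*Grik3* and *Grik1* encode further channel-forming subunits. The TSS coverage of *Grik3* was 48.3, 56.4, 47.9, 51.6 and 21.6% in *Tip60* cKO and 58.1, 65.9, 54.7, 46.6 and 60.3% in controls, with *Tip60* cKO library 5 far below the rest (exact permutation p = 0.0952, adjusted p = 0.284 by limma). Without that library the difference was −6.05 in place of −11.9 points. Its TSS rank score was 84.9 ± 1.95 and 82.3 ± 3.46 (adjusted p = 0.754). *Grik1* had a single TSS peak, in *Tip60* cKO library 3, at a fold enrichment of 2.85 and a rank of 68.7, and at most 2 peaks in its body in any list.

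Peaks of all lists merged into 466 regions over the 9 genes, 192 in *Grik4*, 153 in *Gria1*, 42 in *Grik5*, 40 in *Grik2*, 21 in *Grik3*, 16 in *Gria2*, 1 each in *Gria3* and *Gria4*, and none in *Grik1*. Per 100 kb of body, *Grik5* had 67.8 regions, *Gria1* 48.0, *Grik4* 45.2, *Gria2* 13.4, *Grik3* 9.03 and *Grik2* 5.49. Of the 459 regions in gene bodies 412 (89.8%) lay in introns only, and 43 overlapped coding exons. A peak in all 10 lists was present in 57 regions (12.2%), against 16.4% of all 144781 regions.

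No region of the family passed the adjusted test by limma on rank scores (0 of 466, all regions 0.22%), and 43 (9.23%) had an unadjusted p below 0.05, 26 lower and 17 higher, against 11.1% of all regions. With the default in place of the robust mean-dependent prior of limma, 4 regions were called (all regions 0.562%), all with peaks in 5 control and 0 *Tip60* cKO lists. The median difference was −1.88 in the family and −2.21 over all regions. A peak in at least 4 more control than *Tip60* cKO lists was found in 12 regions (2.58%, all regions 2.27%), 6 of them in *Grik4* and 4 in *Gria1*, and the opposite in 1 region (0.215%, all regions 0.497%), at chr3:80721822-80722447 in *Gria2*.

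**Figure D5:**
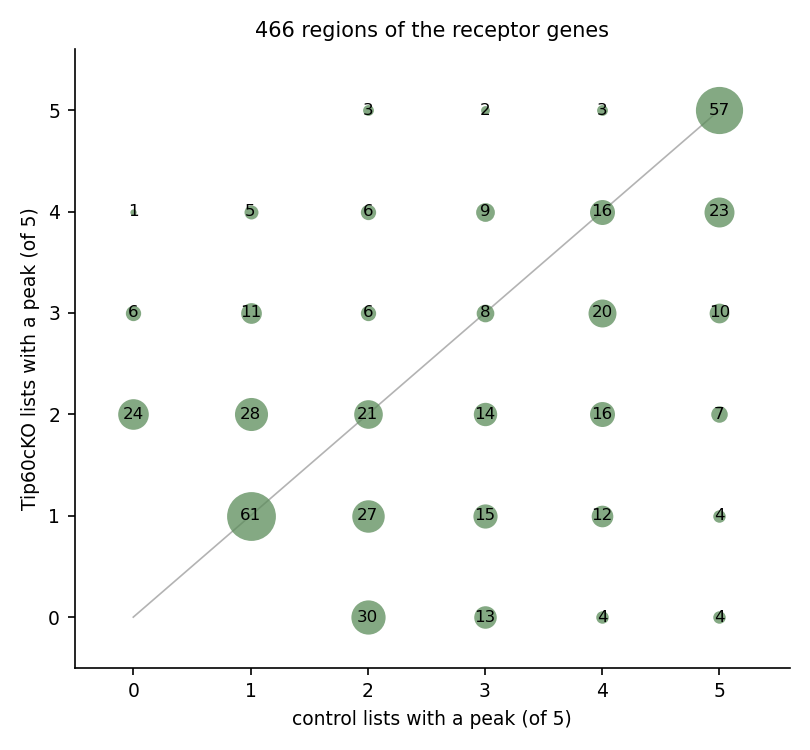
Number of the 466 merged regions of the receptor genes by how many control lists (horizontal axis, of 5) and *Tip60* cKO lists (vertical axis, of 5) held a peak, with the area of each circle and the digit in it giving the count. The largest groups are 61 regions with 1 control and 1 *Tip60* cKO list and 57 regions with all 10 lists, and 4 regions have 5 control and 0 *Tip60* cKO lists.

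The 4 regions with a peak in all 5 control lists and no *Tip60* cKO list, a pattern of 0.373% of all regions, were 2 in *Gria1* and 2 in *Grik4*. In *Gria1* between the coding exons, at chr11:57176330-57177132, printed above, the control rank scores were 45.5, 72.0, 86.7, 60.4 and 83.4 and the *Tip60* cKO scores 0 in 5 libraries (adjusted p = 0.164 by limma). This region overlaps an exon of the non-coding transcript *Gria1-205*, whose own start lies 165 kb inside the gene. In *Grik4* at chr9:42877718-42878605 the control scores were 68.6, 92.7, 72.8, 80.2 and 67.02 against 0 (adjusted p = 0.113). The others were chr11:57284151-57284968 and chr9:42639121-42640092. In *Grik3* a region of intron 1, chr4:125595562-125596287, had a peak in 4 control lists and in no *Tip60* cKO list (adjusted p = 0.267), and in *Grik2* chr10:49639933-49640380 had one in 3 *Tip60* cKO lists and no control list (adjusted p = 0.360). In *Grik5* intron 11 at chr7:25046684-25047475 the rank was 86.9 ± 7.82 in *Tip60* cKO and 69.1 ± 11.5 in controls (adjusted p = 0.269 by limma).

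Genes of proteins that accompany these receptors were compared as a list of 22, made up of auxiliary subunits, trafficking and anchoring proteins, the editing enzyme *Adarb1* and the delta receptors. A TSS peak in all 10 lists was found in 19 of them. The extremes of control coverage were *Cnih2*, an AMPA receptor auxiliary subunit, with 92.7%, and *Grip2*, an anchoring protein with a peak in 3 lists, with 0%. TSS coverage was lower in *Tip60* cKO in 18 of 22 (all genes 81.1%), 8 of 22 had an unadjusted p below 0.05 (22.4%), and 2 were called, both lower, by limma (1.5%). *Cacng5*, an AMPA receptor auxiliary subunit, was at 1.4996 ± 3.35% in *Tip60* cKO and 14.9 ± 4.32% in controls (adjusted p = 0.0348), and *Nsf*, an ATPase that binds the *Gria2* subunit, at 21.4 ± 8.92% and 44.2 ± 8.85% (adjusted p = 0.0410). Both calls rest on coverage that was not divided by the genome coverage of each list. That division turned the sign for several members and was not examined for the partners. No partner was called by TSS rank score (1 of 22 with an unadjusted p below 0.05, all genes 12.6%) or by body coverage (3 of 21, all genes 15.7%).

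The NMDA receptor genes, the third family of ionotropic glutamate receptors, were set beside the members. Of 7 genes, 4 had a TSS peak in all 10 lists, as did 5 of the 9 members, and *Grin2d* had one in 1 list. None was called by TSS rank score (all genes 0.397%), TSS coverage (1.5%) or body coverage (0.0702%). An unadjusted p below 0.05 was found in 0 of 6 tested by TSS rank score (all genes 12.6%), 0 of 6 by TSS coverage (22.4%) and 1 of 7 by body coverage (15.7%). The highest body coverage in controls was that of *Grin1* with 19.5%, next to 20.5% of *Grik5*.

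Over the 10 libraries, the TSS coverage of *Gria1* was most like that of *Cd164l2* (Pearson's r = 0.978), *Lrrc20* (0.973) and *Trmt1* (0.972), among 13004 genes with a TSS peak in all lists. All genes share the depth and peak number of each library, so these are descriptions.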

How the data were processed

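H4K12ac ChIP-Seq of sorted hippocampal neuronal nuclei gave 10 peak lists, 5 per genotype. Per the paper's methods and the file headers, the authors mapped reads with STAR to mm10 (GRCm38), filtered out PCR duplicates (samtools) and used MACS 2.1.0.20140616 (q threshold 0.1) to call peaks library by library against the pooled input of the same genotype. Pileup, as deposited, is the fragment coverage (signal) at a peak's summit. Fold enrichment, also deposited, is a ratio of that pileup to the local background. The authors' p-values and q-values are −log10 values.

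Transcription start sites and gene bodies came from GENCODE M21 and sequences from RefSeq (GRCm38.p6). Rank scores and coverage were computed from the peaks, and features with a peak in at least 2 lists were fitted with limma 3.58.1 (lmFit, eBayes with trend and robust) in R 4.3.3, with Benjamini-Hochberg adjustment over all features and a threshold of 0.05. Single genes were compared by exact permutation over 252 assignments in Python 3.11.15 (scipy 1.17.1, numpy 2.4.6, pandas 2.3.3). The count model of the study needs reads and was not run. Regions were 144781 merged peaks present in at least 2 lists. The fits were tested on simulated scores. All 9 genes are reported, and regions were named where they had the smallest p in a gene, were the strongest outside the start window, or were singled out after their values were seen, as stated. Partner genes were named if called or if extreme. The genes most like *Gria2* and 1 marker gene are not reported here. The members and lists were chosen with earlier results of these data known. Lists hold no counts per region, so no counting error is given, and depth (22864189 to 37923809 tags) can affect which peaks were found. Groups follow the genotype labels, and lanes the file names (replicates 1 to 3 on lane 7, 4 and 5 on lane 8). Alternatives were stricter and equal peak numbers, ranking by pileup, a log2 scale, a 1 kb window, all transcript starts, other filters and priors, the replicate block, the lane, and each library left out. Labels and paper differ in strain, sex and library kit.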

Additional observations from a re-analysis of the deposited data

Results flagged for a closer look

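Of 49 groups of 5 libraries in which the members had values, 10 held 1 library far from the other 4 by Dixon's criterion. For continuous values chance gives about 1 in 20, a rate that does not apply to the 7 cases below in which 1 library had or lacked a peak, since the scores end at 0. In *Gria2*, control library 3 had a TSS coverage of 47.9%, whereas the others had 64.0 to 66.2%. In *Grik3*, *Tip60* cKO library 5, the one with the fewest peaks, had 21.6% against 47.9 to 56.4%. In *Grik5*, control library 5 had a TSS rank score of 85.5 against 98.4 to 99.6.

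In these 7 cases 1 library had or lacked the peak. *Gria3* had no TSS peak in control library 4 (rank score 0, the others 67.7 to 79.5), and *Grik2* none in *Tip60* cKO library 3 (0, the others 76.3 to 89.4). *Gria4* had its only control peak in library 3, with a rank score of 72.4 and a coverage of 12.4%. *Grik1* had its only TSS peak in *Tip60* cKO library 3, with a rank score of 68.7 and a coverage of 5.32%, and its only *Tip60* cKO body peaks in library 1, covering 0.119% of the body.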

How the results depend on the processing

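Of 805 recomputed values of 42 member and region results, 776 kept their direction and their side of the threshold, 2 passed it and 27 changed sign, in 14 results. On the log2 scale of fold enrichment the count of members called by the TSS score went from 0 to 1 (*Grik4*) and that of regions from 0 to 1 (its start), and with the default prior the count of regions went from 0 to 4. Without any 1 library all 5 counts stayed 0.

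Same-numbered libraries of the genotypes deviated with r from −0.151 to 0.135, and 1 of 5 correlated best with its own number. So few pairs cannot decide whether the numbers mark a pairing. Numbers 1 to 3 share lane 7 and numbers 4 and 5 share lane 8 in both genotypes. With the replicate block the counts of members and regions called were 0, and the log2 start score of *Grik4* kept its call (adjusted p = 0.0319 with the block, 0.0174 with the lane, both added after the data were seen).

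Divided by the genome coverage of each list, the difference in TSS coverage turned to 2.55 (*Gria2*), 1.11 (*Gria3*), 1.05 (*Grik2*), 0.589 (*Grik3*), 3.19 (*Grik4*) and 9.75 (*Grik5*). Without *Tip60* cKO library 5, which had the smallest genome coverage (0.829%), this quotient was again lower in *Tip60* cKO for *Gria2*, *Grik2* and *Grik4*. For *Gria3*, *Grik3* and *Grik5* it stayed higher. Control library 4, with the smallest genome coverage of the controls (1.45%), was kept, and leaving out both libraries was not tested. The TSS coverage difference of *Gria3* was also 0.475 with equal peak numbers and 1.88 in a 1 kb window, and −4.74 to 0.865 without 1 library. Without 1 library the body coverage of *Grik1* ranged from −0.0245 to 0.0110, the TSS rank of *Grik2* from −18.9 to 3.40 (positive without *Tip60* cKO library 3), the body rank of *Gria1* from −0.968 to 2.27, and the regions *Gria1* 57315385 from −0.0243 to 2.23 and *Gria2* 80691080 from −16.8 to 5.44. On the log2 scale the differences of the *Grik3* start (−0.0745), the *Gria1* body (−0.0674), the *Gria1* region 57315385 (−0.0287) and the *Grik5* region 25002971 (−0.0638) turned, and by pileup that of the *Grik2* region 49779559 (1.77). The cause was not tested. Lists without counts and unequal depth limit small differences, and features without any peak could not be fitted.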
